A study of Salvia miltiorrhiza with 5 samples.

Results

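The miRNA families miR408, miR398 and miR397 were examined in root, stem, leaf and flower of *Salvia miltiorrhiza*, the medicinal sage whose dried root holds the tanshinones. Entries of the miRNA table were chosen by name alone, as those that carry miR408, miR398 or miR397 not followed by another digit. This gave 11 of the 650 entries, with 5 for miR408, 5 for miR398 and 1 for miR397, and these stand for 6 of the 241 distinct sequences. The plants had been cultivated for 8 months in an experimental field and were in flower. The sources used here name no treatment and no genotype for any of the groups. There was 1 small RNA library per tissue. No value is therefore replicated, and each difference described is between libraries. The number of plants behind a library is not given in the sources used here, and whole organs were used, so fewer cells that make a miRNA and less of it per cell cannot be told apart. The tissue names were taken as labelled, since the table holds small RNAs and no marker genes of organs.

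Plants make a number of copper proteins, and these families act on the mRNAs of some of them. In *Arabidopsis*, miR398 acts on the copper/zinc superoxide dismutases CSD1 and CSD2 and on their copper chaperone, miR397 on laccases of the cell wall, and miR408 on plantacyanin and laccases. The transcription factor SPL7 raises these miRNAs in that species under low copper, so that copper is left for plastocyanin in photosynthesis. Plant miRNAs pair with their targets over nearly their whole length, and ARGONAUTE proteins cut the target within the paired stretch.

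The 6 sequences are shown first because the names of the table refer to other species and hide which names share a sequence. Each is written as deposited, with T for U, and bases 2 to 8 from the 5′ end, the seed, are in capitals. The sequences are numbered by their reads within a family.
miR408 sequence 1: tGCACTGCctcttccctggct
miR408 sequence 2: aCGGGGACgagacagagcatg
miR398 sequence 1: cATGTGTTctcaggtcgcccc
miR398 sequence 2: cATGTTCTcaggtcgcccct
miR398 sequence 3: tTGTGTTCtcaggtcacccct
miR397 sequence 1: tTGAGTGCagcgttgatgaca
The 6 seeds are all different, and no 2 sequences of different families share a run of more than 4 bases. Within miR398, sequences 1 and 2 share a run of 17 bases that starts at base 5 of sequence 1 and at base 3 of sequence 2. Sequence 2 has 20 bases and the other 5 sequences have 21. miR408 sequence 2 comes from the 5′ arm of its precursor, opposite to sequence 1 on the 3′ arm, and all miR398 sequences come from the 3′ arm.

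The miR408 and miR398 sequences of the sage were mostly shifted against the known mature miRNAs to which the authors assigned them. miR408 sequence 1 is listed under 4 names. It starts 1 base later and ends 1 base later than *Arabidopsis lyrata* aly-miR408-3p, and it equals the spikemoss smo-miR408 without its last base. miR398 sequence 1 starts 2 bases before the columbine aqc-miR398b and ends 2 bases before it, with all 19 facing bases identical. miR398 sequence 2 starts at the same base as peach ppe-miR398b and potato stu-miR398a-3p. It carries the substitution G2A against the first and T1C against the second, where the known base stands first, the position is counted from 1 at the 5′ end of the known miRNA, and the base of the sage follows. The known sequences are the following.
aly-miR408-3p: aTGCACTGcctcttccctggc
smo-miR408: tGCACTGCctcttccctggctg
aqc-miR398b: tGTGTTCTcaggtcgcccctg
ppe-miR398b: cGTGTTCTcaggtcgcccctg
stu-miR398a-3p: tATGTTCTcaggtcgcccctg
mdm-miR397a: tTGAGTGCagcgttgatgaaa

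None of the 11 entries lies on an expressed sequence tag (EST) of the plant, against 49 of all 650 entries, so each rests on a precursor of another species. The precursors listed came from 29 species for miR408, 28 for miR398 and 22 for miR397. miR397 sequence 1 is named after apple mdm-miR397a and carries A20C against it. The precursor that the table gives for this entry is ssl-MIR397 of clary sage, *Salvia sclarea*, a plant of the same genus, and it holds all 21 bases without a mismatch. It is shown with these bases, 4 to 24 of 83, in capitals.
ssl-MIR397: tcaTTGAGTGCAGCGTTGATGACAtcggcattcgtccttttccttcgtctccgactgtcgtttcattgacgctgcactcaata
miR398 sequence 1 lies in the same way in aqc-MIR398b at bases 70 to 90 of 93, and its 2 extra bases at the 5′ end belong to that precursor.
aqc-MIR398b: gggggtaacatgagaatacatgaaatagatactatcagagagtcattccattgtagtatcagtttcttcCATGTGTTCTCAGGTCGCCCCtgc
miR398 sequence 2 was not found whole in either of the precursors listed for it.

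Reads in the table are estimated counts, because the authors split a read over all the entries it fitted. The 3 families held 415 reads, which is 0.0258% of the reads in the table. miR408 had 259 reads, miR398 132.7 and miR397 24, which ranked them 25, 28 and 34 among 71 families. The table holds 238148 to 499434 reads per library. The authors multiplied the reads of each library by 1 factor to give normalized counts. The factor was 0.547 for root, 0.715 for stem, 1.41 for flower and 1.90 for leaf. Intervals on levels are exact 95% Poisson intervals and cover counting error only.

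miR408 was a miRNA of leaf and flower in these libraries. The leaf library had 129 of its reads, the flower library 71.3, the root library 42.8 and the stem library 15.45. The normalized count was 246 for leaf (205 to 292), 100.4 for flower (78.5 to 127), 23.4 for root (16.9 to 31.6) and 11.04 for stem (6.24 to 18.1). Leaf was above every other library, and only the intervals of root and stem overlapped. Leaf was 2.45-fold above flower (95% interval 1.82 to 3.31), 10.5-fold above root (7.37 to 15.2) and 22.2-fold above stem (13.1 to 40.5). Per 1000000 clean reads, a scaling by the library totals of the study, leaf was 4.97-fold above root (3.49 to 7.20) and 10.2-fold above stem (6.02 to 18.6). Root was 2.12-fold above stem (1.16 to 4.08), an interval that leaves out 1 although the intervals of both levels overlap. Sequence 1 carried 99.8% of the miR408 reads, and the 5′ arm had 0.5 reads, all in leaf.

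miR398 was likewise found mainly in leaf and flower, but by normalized count without a detectable difference between these. The flower library had 55.3 reads, leaf 53.7, stem 12 and root 11.7. The normalized count was 102 for leaf (76.6 to 133), 78.0 for flower (58.8 to 101), 8.58 for stem (4.43 to 15.0) and 6.39 for root (3.26 to 11.2). The libraries fell into a high pair, leaf and flower, and a low pair, stem and root, with overlapping intervals within each pair and none between the pairs. Leaf was 16.0-fold above root (8.38 to 33.2) and 11.9-fold above stem (6.28 to 24.4), and per 1000000 clean reads 7.58-fold (3.97 to 15.7) and 5.48-fold (2.89 to 11.3). The ratio of leaf to flower was 1.31 (0.882 to 1.94) and that of stem to root 1.34 (0.549 to 3.30), and both intervals hold 1. As shares of miRNA reads the ratio of leaf to flower was 2.02 (1.36 to 2.99), which leaves out 1.

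miR397 was sparse and highest in flower. It had 12 reads in flower, 7 in root, 4 in leaf and 1 in stem. The normalized counts were 16.9 in flower (8.74 to 29.5), 7.61 in leaf (2.07 to 19.5), 3.83 in root (1.54 to 7.89) and 0.715 in stem (0.0181 to 3.98). Only flower stood clear of root and stem, and the interval of leaf overlapped with all others. The ratio of leaf to stem was 10.6 (1.05 to 524), which leaves out 1, while per 1000000 clean reads it was 4.90 (0.485 to 241). Flower was 4.41-fold above root (1.60 to 13.2). Against the single read in stem the ratio of flower was 23.7 with an interval of 3.50 to 1011, so its size was not determined at this depth. The ratio of flower to leaf was 2.22 (0.674 to 9.46), and per 1000000 clean reads it was 3.97 (1.20 to 16.9), which leaves out 1.

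**Figure D1:**
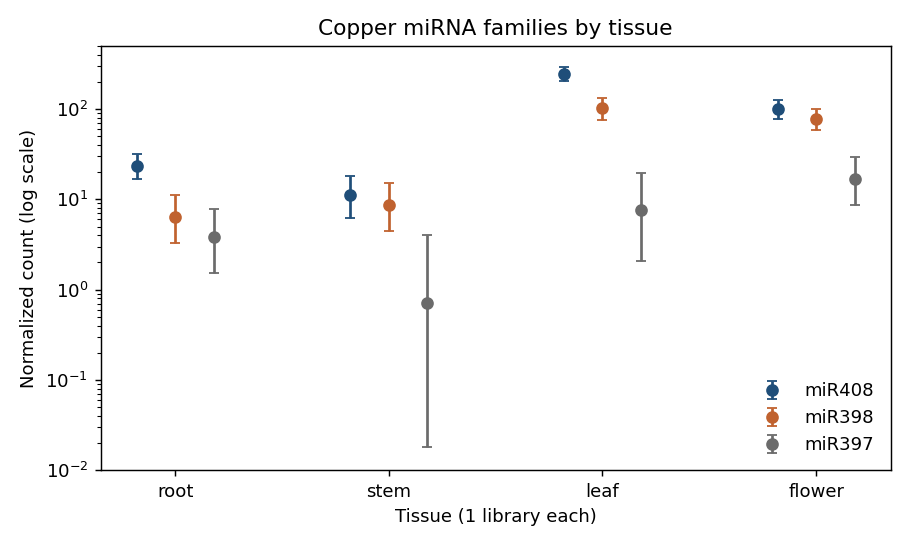
Normalized counts of the miR408, miR398 and miR397 families (log axis) in the 4 tissues, with 1 library each. Points are sums over the entries of a family and bars are 95% Poisson intervals; miR408 reached 246 in leaf and 11.04 in stem, and miR397 reached 16.9 in flower.

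To ask whether the families moved together, leaf and flower, the lateral organs, were first set against root and stem, the axial organs. The summed normalized count of leaf and flower was 10.04-fold that of root and stem for miR408 (95% interval 7.48 to 13.5), 12.03-fold for miR398 (7.68 to 18.8) and 5.39-fold for miR397 (2.30 to 12.7). On the log2 scale these contrasts were 3.33, 3.59 and 2.43. The other 3 scalings, by clean reads, by all miRNA reads and by miRNA reads without the 10 most abundant sequences, gave lower folds. They ran from 5.44 to 5.94 for miR408, from 6.14 to 7.51 for miR398 and from 2.47 to 3.92 for miR397. The lowest for miR397, by all miRNA reads, had an interval of 1.03 to 5.89. By the authors' factors, the contrast of miR408 minus that of miR398 was -0.26 (-1.03 to 0.51), that of miR408 minus miR397 was 0.90 (-0.41 to 2.20), and that of miR398 minus miR397 was 1.16 (-0.23 to 2.55). All 3 intervals hold 0, and they also hold differences of more than 2-fold, so an equal contrast was not shown.

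Within the lateral organs the families differed. The log2 ratio of leaf to flower was 1.29 for miR408 (0.86 to 1.73), 0.39 for miR398 (-0.18 to 0.96) and -1.15 for miR397 (-3.24 to 0.57). A difference of this ratio between families does not depend on the library factors, which cancel. It was 0.90 for miR408 minus miR398 (0.22 to 1.59) and 2.44 for miR408 minus miR397 (0.76 to 4.13). By family sums, miR408 thus leaned more to leaf than the other families did. For miR398 minus miR397 the difference was 1.54 (-0.18 to 3.26), which holds 0. The miR398 sum joins unlike sequences. The log2 ratio of leaf to flower was 1.66 for its sequence 2 (0.63 to 2.77), an interval that holds all of that of miR408. It was -0.32 for its sequence 1 (-1.09 to 0.41). The ratio of root to stem was 1.08 for miR408 on the log2 scale (0.22 to 2.03) and -0.43 for miR398 (-1.72 to 0.87). Their difference, examined after the values were seen, was 1.51 (0.08 to 2.94). The log2 ratio of root to stem was 0.86 for miR398 sequence 1 (-1.05 to 3.12) and -1.61 for miR398 sequence 2 (-4.19 to 0.52). Only sequence 1 had the direction of miR408, and both intervals hold 0. For miR408 the interval of this ratio held 0 without the 10 most abundant sequences in the scaling (-0.21 to 1.60) and with the largest entry of each sequence alone (-0.45 to 2.76).

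**Figure D2:**
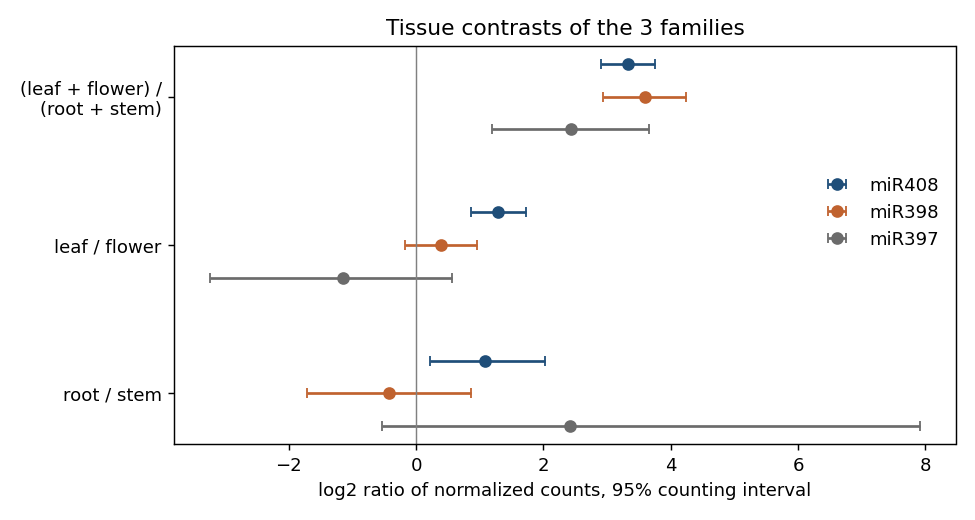
Log2 ratios of normalized counts for 3 tissue contrasts in each family, with 95% intervals from counting error as bars. The leaf and flower contrast lies between 2.43 and 3.59 for the families, while leaf over flower runs from 1.29 for miR408 to -1.15 for miR397.

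For each distinct sequence of the table, the split of its reads was compared with the split of depth over the libraries by Pearson's chi-squared test or, where an expected count was below 5, the exact multinomial test. Of the 6 sequences 4 had p under 0.01, and the same number passed after Benjamini-Hochberg adjustment over all sequences. Among all 226 sequences tested, 38.1% had p under 0.01, or 82.1% of the 95 with at least 10 reads. The 4 sequences called are the 4 with at least 10 reads, so their number is near this background. After adjustment 35.4% of all sequences tested passed. The chi-squared test gave p = 2.13e-93 for miR408 sequence 1 (adjusted 2.67e-92), 1.39e-28 for miR398 sequence 1 (adjusted 9.53e-28) and 1.51e-22 for miR398 sequence 2 (adjusted 9.45e-22). For miR397 the exact multinomial test gave p = 4.49e-05 (adjusted 0.000156). As shares of miRNA reads, in place of the authors' factors, the p-value of miR397 was 0.0506 and it was no longer called. These p-values concern the 4 libraries and not the tissues. The study called a miRNA up-regulated at a Z-value above 1, with a significance threshold of 0.01, and does not state how Z was computed. Here Z was the deviation from the mean of the 4 normalized counts, divided by their standard deviation. It was above 1 in leaf for miR408 sequence 1 and miR398 sequence 2 (Z of 1.39 and 1.44). In flower it was above 1 for miR398 sequence 1 and miR397 (Z of 1.06 and 1.37). For miR398 sequence 1 this depends on the scaling, since leaf came first as a share of miRNA reads. miR408 sequence 2, with 0.5 reads in leaf alone, also had a Z of 1.5 there, but a p-value of 0.118 (exact multinomial test). The share of all sequences with a Z above 1 was not counted, so these calls do not set the members apart.

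The sequences of miR398 did not share a tissue profile. Sequence 1 had 61.3% of the miR398 reads, with 43.3 in flower, 25.7 in leaf, 8.67 in root and 3.67 in stem. Its normalized counts were 61.1 in flower (44.2 to 82.1), 48.8 in leaf (31.8 to 71.7), 4.74 for root (2.13 to 9.11) and 2.62 for stem (0.661 to 6.97). Flower and leaf overlapped, as did root and stem. As a share of miRNA reads, sequence 1 was highest in leaf.

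Sequence 2 had 37.7% of the reads, with 28 in leaf, 12 in flower, 7 in stem and 3 in root. The normalized counts were 53.2 in leaf (35.4 to 77.0), 16.9 in flower (8.74 to 29.5), 5.003 in stem (2.01 to 10.3) and 1.64 in root (0.339 to 4.80). Leaf stood clear of all others here. By normalized count the ratio of leaf to flower was 3.15 for sequence 2 (1.55 to 6.80) and 0.799 for sequence 1 (0.471 to 1.33). The log2 ratio of sequence 2 exceeded that of sequence 1 by 1.98 (0.77 to 3.18), again free of the library factors. In leaf their intervals overlapped, while in flower sequence 1 was the higher and the intervals did not overlap. Sequence 3, listed as *Arabidopsis lyrata* aly-miR398a-3p_L+1R-1, had 1.33 reads, all in stem, and is too sparse to be placed.

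**Figure D3:**
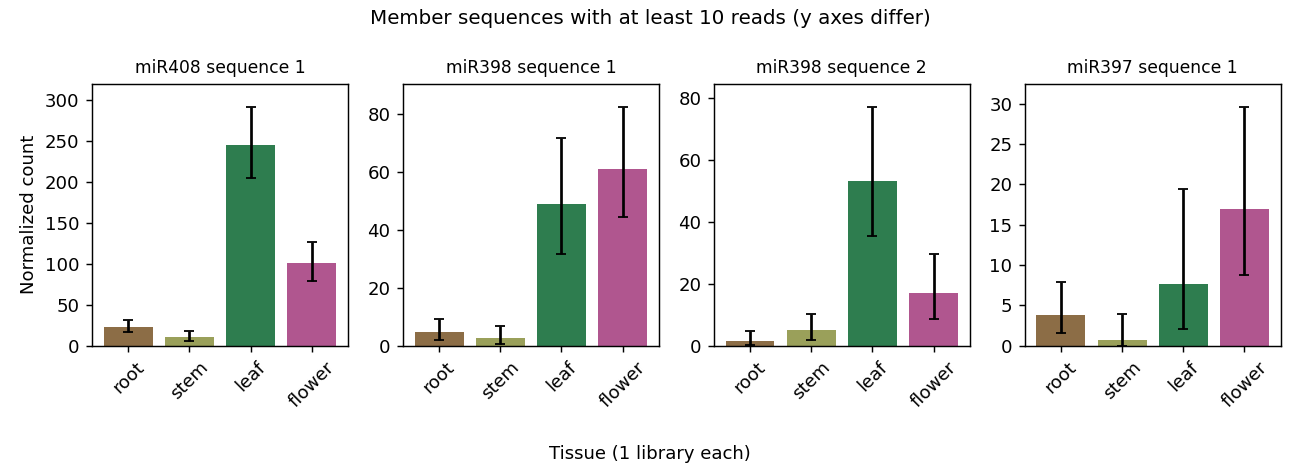
Normalized counts of the 4 member sequences with at least 10 reads in root, stem, leaf and flower (1 library each; y axes start at 0 and differ between panels), with 95% Poisson intervals as bars. miR398 sequence 1 was highest in flower with 61.1 and sequence 2 in leaf with 53.2.

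Names that share a sequence did not always have equal reads. The 4 names of miR408 sequence 1 had 53.9 to 82.0 reads, with aly-miR408-3p_L-1R+1 highest and zma-miR408a_L-1R+1 lowest. All 4 were highest in leaf, with 61.9% to 66.6% of their normalized count there and 23.3% to 28.7% in flower. They are not separate observations, as they share reads. An even split of the same reads would have given equal values, so some reads may have been credited to only some of these names. The sources used here do not show whether every summed read has exactly the sequence printed. For miR398 sequence 1, aqc-miR398b_L+2R-2 and ptc-miR398b_L+2R-2 had the same reads in root, leaf and flower, and differed only in stem, with 2.33 and 1.33. The names of sequence 2 had identical values in every library. The summed reads were whole numbers, within 0.001, in all 4 libraries for miR398 sequence 2 and for miR397. They were whole in 0 of 4 libraries for miR408 sequence 1 and miR398 sequence 1, so part of the reads shared by these entries was credited outside them and their sums may be too low.

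Higher levels in leaf and flower were shared with other families. Among the 37 families with at least 10 reads, 29.7% had leaf and flower each above both root and stem by normalized count, and miR408, miR398 and miR397 were 3 of these 11. In log2 terms the contrast of leaf and flower with root and stem had a median of 0.56 over the 37 families. miR398 ranked 3, miR408 4 and miR397 10 among them. With any of the other 3 scalings, the clean reads, all miRNA reads or the miRNA reads without the 10 most abundant sequences, this median was between -0.50 and -0.11. miR398 then ranked 2 or 3, miR408 3 to 6, and miR397 8 to 10. By clean reads 18.9% of the families had leaf and flower above root and stem, and miR408 and miR398 were among them, while miR397 was not, with 0.744 reads per 1000000 in leaf and 0.790 in root. By share of miRNA reads it was 21.6%, with all 3 families. Of sequences with at least 10 reads, 32.6% had this order, and so had 4 of the 4 members. By clean reads 18.9% of the sequences had it, and 3 of the 4 members.

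**Figure D4:**
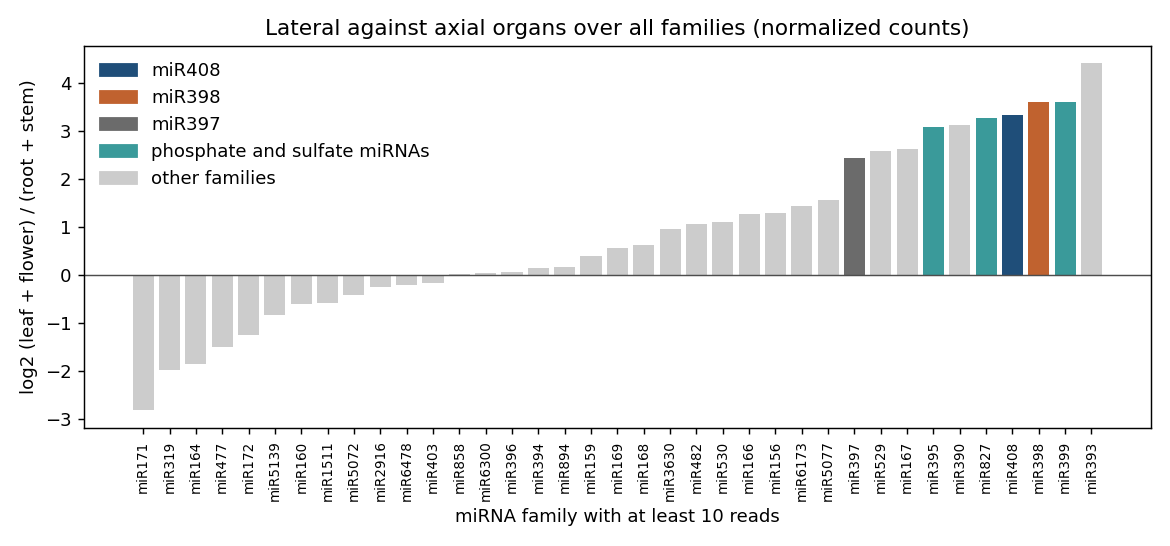
Log2 ratio of the summed normalized counts of leaf and flower to those of root and stem, for each of the 37 miRNA families with at least 10 reads (bars start at 0). miR398 (3.59), miR408 (3.33) and miR397 (2.43) are coloured, as are the phosphate and sulfate families; the median of all families is 0.56.

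The scaling set the order of leaf and flower for miR398. Per 1000000 clean reads it had 13.6 reads in flower (10.3 to 17.7), 9.98 in leaf (7.49 to 13.0), 1.82 in stem and 1.32 in root, so flower was highest. By the other 3 scalings leaf was highest. miR408 was highest in leaf with all 4 scalings. Per 1000000 clean reads its level was 24.0 for leaf (20.1 to 28.5), 17.5 for flower (13.7 to 22.1), 4.83 for root and 2.35 for stem, and leaf was 1.37-fold above flower (1.02 to 1.86). miR397 was highest in flower and lowest in stem with all 4 scalings. Its flower level was 2.95 per 1000000 clean reads (1.52 to 5.15).

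**Figure D5:**
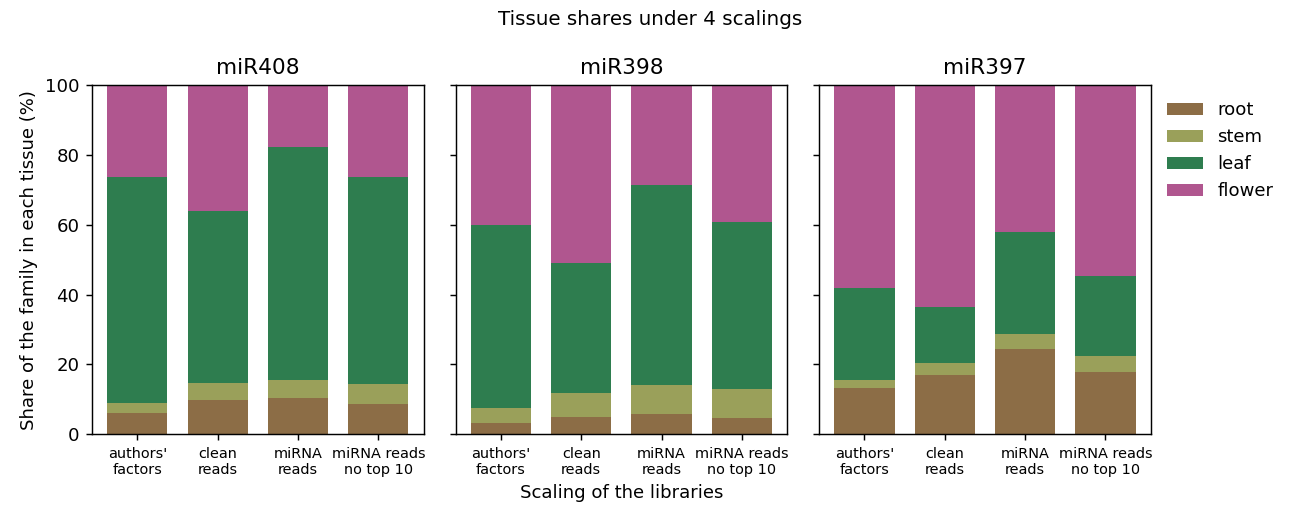
Share of each family in the 4 tissues (percent, stacked to 100) when the libraries are scaled by the authors' factors, clean reads, all miRNA reads, or miRNA reads without the 10 most abundant sequences. The leaf share of miR408 was 64.6% by the authors' factors and 49.3% by clean reads, and root and stem stayed the smaller part for every family.

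Other miRNAs of plant nutrition were taken from a list of 7 families. Of the copper-related families of other plants, miR528, known from grasses, had 3 reads, with 2 in flower and 1 in leaf. miR857 and miR1444 had no entry among those analysed. miR399, which acts on the ubiquitin-conjugating enzyme PHO2 in phosphate supply, had 93.1 normalized counts in flower (72.0 to 118), 13.2 in leaf (5.29 to 27.3), 4.93 in stem and 3.79 in root. miR827, known to act on phosphate genes with an SPX domain, had 52.1 in flower (36.7 to 71.9), 38.0 in leaf (23.2 to 58.7), 5.003 in stem and 4.38 in root. miR395, which acts on ATP sulfurylases and a sulfate transporter, had 8 reads in leaf, 3 in stem, 2 in flower and 0 in root. miR2111 had 3 reads in root and 2 in flower. All 3 of the listed families with at least 10 reads, miR399, miR827 and miR395, thus had leaf and flower above root and stem by normalized count, as had 29.7% of all families. For miR399 the leaf interval overlapped those of stem (1.96 to 10.2) and root (1.51 to 7.83). It had 6.95 reads in leaf, 6.92 in root and 6.89 in stem, and flower held 80.9% of its normalized count. Per 1000000 clean reads it had 1.29 in leaf, 1.05 in stem and 0.781 in root. By share of miRNA reads miR395 had not, with 4.04 reads per 1000000 miRNA reads in flower and 7.89 in stem, nor had it without the 10 most abundant sequences.

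The tissue profile of each family was compared with the others by a distance, the summed absolute differences of the 4 tissue shares divided by 2, which is 0 for equal profiles and 1 for profiles with no tissue in common. Among the 33 families with at least 30 reads the median distance over the 528 pairs was 0.351. The distance was 0.151 between miR408 and miR398, 0.281 between miR398 and miR397 and 0.388 between miR408 and miR397. The family nearest to miR408 was miR167, at 0.0680, followed by miR398 and by miR6173 at 0.231. miR167 was also nearest to miR398, at 0.118, followed by miR827 at 0.141 and miR408, but by clean reads miR827 came first at 0.122 and miR167 next at 0.144. miR167, which acts on auxin response factors, had 57.8% of its normalized count in leaf and 28.2% in flower, against 9.10% for root and 4.92% for stem. The shares of miR408 were 64.6%, 26.4%, 6.15% and 2.90% in the same order.

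miR397 was nearest to miR166, at 0.138, followed by miR827 at 0.146 and miR482 at 0.168, and miR398 and miR408 came only at places 9 and 19. With the other 3 scalings miR827 was nearest, at 0.130 by clean reads, 0.193 by all miRNA reads and 0.161 without the 10 most abundant sequences, ahead of miR166. Its own shares of 58.2% for flower, 26.2% for leaf, 13.2% for root and 2.46% for stem rest on 24 reads. miR408 stood at place 2 or 3 from miR398 and miR398 at place 2 from miR408 with all 4 scalings. These distances describe 4 libraries that all families share, and no test was made of them.

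No target was found for these families in the degradome, which reads the 5′ ends of cut RNA from 1 library of the mixed tissues. Among the 82 pairs of small RNA and transcript in the deposited table, 0 carried a member by name or by sequence. Pairs were rare for all miRNAs, with 25 of 488 names in any pair. The 0 of 11 member names therefore does not set these families apart. The table lists only pairs that passed the authors' search against ESTs, so cleavage of laccase, superoxide dismutase or plantacyanin mRNAs cannot be judged from it. The most abundant miR408 name, aly-miR408-3p_L-1R+1, had more small RNA reads than 18 of the 25 names with pairs, aqc-miR398b_L+2R-2 more than 17 and the miR397 name more than 16. These are divided reads of the most abundant name of each family, summed over the libraries. Whether abundance bears on the absence of pairs was not tested.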

How the data were processed

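Small RNA of root, stem, leaf and flower was sequenced with 1 library per tissue, and samples were assigned by their labels. With ACGT101-miR 4.2 the authors kept reads of 18 to 25 nt free of adapters and of other RNA classes, and searched them against miRBase 20.0. In their deposited table, reads are estimated counts divided over matching entries, and normalized counts are a signal, the reads times 1 factor per library. In the degradome table, made with CleaveLand 3.0 and ACGT301-DGE 1.0, the authors give each pair a raw read count, a divided signal, an alignment score and a p-value, of which only the pairs were used here. Of the miRNA entries 6 lines are not analysed here. The clean reads of 1 alternative scaling are the library totals given by the study.

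Entries were summed per sequence and per family, the number in the name, and rounded for tests only. The test used 3 degrees of freedom and a threshold of 0.01, as in the study, on all 226 sequences with at least 1 read after rounding to the nearest whole number. It was tried on simulated whole counts that varied by counting error only. Those hold no variation between plants and no divided reads, so they do not cover these features of the data. Ratios have exact conditional binomial intervals, and sums and differences of ratios have normal intervals of counting error. Named families were the members, the 3 nearest families to each among those with at least 30 reads, and the 7 nutrition families. Members and lists were chosen with earlier results of these data known. Alternatives covered scaling, the combining of divided reads, rounding, the unit tested, the minimum of reads and the adjustment. Tests were made with scipy 1.17.1 and numpy 2.4.6 in Python 3.11.15, tables with pandas 2.3.3 and plots with matplotlib 3.10.9.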

Additional observations from a re-analysis of the deposited data

How the results depend on the processing

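With 1 library per tissue no replicate could be left out, and no paired analysis was possible because each tissue has a single library. Of the 82 alternative values of the main results, 69 stayed within the interval of the value reported or within 1.5 times its count, 13 moved, and 0 changed the sign of a value whose interval left out 0. Per 1000000 clean reads the log2 contrast of leaf and flower with root and stem was 2.53 for miR408, 2.91 for miR398 and 1.97 for miR397. In the same order it was 2.44, 2.62 and 1.30 as a share of miRNA reads, and 2.57, 2.74 and 1.79 without the 10 most abundant sequences. The interval of miR397 as a share of miRNA reads was 0.05 to 2.56. The log2 ratio of leaf to flower was 0.46 for miR408 and -0.45 for miR398 per 1000000 clean reads, and 1.91 and 1.01 as a share of miRNA reads. These shifts are those of the library factors and are the same for every family in the ratio of 2 libraries. With the most abundant sequence of each family alone, the leaf to flower ratio of miR398 was -0.32, and that of miR408 exceeded it by 1.61. By names, 9 of the 11 members differed between the libraries, in place of 4 of 6 sequences. These 9 names are those of the 4 sequences called. Names of the same sequence share reads, so they are not separate observations. Of all 286 names tested 98 differed, or 34.3%, and of the sequences with at least 10 reads 82.1% did. Of the 39 alternative p-values of single sequences 1 crossed the threshold, that of miR397 as a share of miRNA reads (exact multinomial test, p = 0.0506). Depth limits miR397 most, with 24 reads.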
